A study of Mus musculus with 6 samples.

Results

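This account follows 9 effector genes of the classical subtype of pancreatic ductal adenocarcinoma (PDAC) whose products belong to the surface and secretory epithelium of stomach and gut: Ctse, Anxa10, Lgals4, Myo1a, Ceacam1, Plac8, Vsig1, Vsig2 and St6galnac1. They were taken by name, not by their values. Of these 9, 8 had a row among the 14254 genes of the table used, and St6galnac1 was not analysed here. A filter on low values, which asked for 10 normalised counts or more in 3 or more libraries, kept 13997 genes and 7 of the 8. Vsig2 did not pass it and is described by its values alone.

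RNA was sequenced from 6 cultures of the mouse PDAC organoid line KPF_5.3G, grown in medium that held Noggin, R-spondin-1, gastrin, FGF-10 and EGF. The control group (shCtrl, genotype tag WT, 3 biological replicates) carried a control short hairpin RNA. The knockdown group (shJag1_3, genotype tag Jag1 knockdown, 3 biological replicates) carried a hairpin against Jag1, a ligand of the Notch receptors, and both hairpins were delivered by lentivirus. All samples come from 1 line and the knockdown from 1 hairpin. The comparison asks about the role of Jag1 in a hybrid state between epithelium and mesenchyme, held by tumour-initiating cells rich in CD9.

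Classical PDAC is the better differentiated of the transcriptional subtypes of this tumour, and its signature holds many genes that a healthy pancreatic duct uses little and that the stomach or the intestine uses strongly. Factors of foregut and gut identity such as Gata6, Hnf4a and Cdx2 are known to sustain such programmes. The 9 genes are not all surface proteins. Ceacam1, Vsig1 and Vsig2 are transmembrane proteins of the immunoglobulin superfamily, Lgals4 is a galectin that is secreted and binds glycans at the apical membrane, and Myo1a is the motor that ties brush border actin to the membrane. Ctse is an intracellular aspartic protease of gastric surface cells, Anxa10 an annexin of gastric epithelium, Plac8 a small cysteine-rich intracellular protein and St6galnac1 a Golgi enzyme that makes the sialyl-Tn sugar of mucins.

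Libraries held between 22268997 and 35172593 reads. Jag1 itself kept 55.0%, 32.6% and 65.8% of the control count in knockdowns 1, 2 and 3, and the groups overlapped (exact two-sided permutation test p = 0.2, where 0.1 is the smallest p that 3 against 3 libraries allow). Its log2 change was -1.03 (SE 0.45, adjusted p = 0.691) in limma and -1.02 (SE 0.27, adjusted p = 0.00628) in DESeq2 with the replicate number as a term. Both replicate 1 libraries stood apart from the other 4 on the first principal component, which held 55.8% of the variance. All 8 markers of epithelium had a row, which shows only that they were listed and does not test the label of the line. Of markers of other cells, 1 of 6 acinar, 0 of 5 endocrine, 2 of 7 fibroblast, 1 of 8 immune and 1 of 4 endothelial genes had one. The acinar, fibroblast and endothelial markers summed to at most 47.4, 45.5 and 62.1 normalised counts in any library. The 1 immune marker, Cd68, was not that low: it reached 988 in knockdown 2, against at most 136 in a control. In bulk RNA, a change in the number of cells that use a gene and a change in RNA per cell cannot be told apart.

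Promoter sequence was available for 6 of the 9 genes, from RefSeq on GRCm38.p6, as windows around 7 start sites. The 4 stretches below, upstream of every annotated start, are shown because they hold letters read by regulators of epithelial and gut genes. Capitals mark CAGGTG or its reverse (bound by Zeb and Snai repressors of epithelial genes) in Lgals4 and Myo1a, TGANTCA (bound by AP-1) in Anxa10, and GTTAAT or its reverse (part of the site of Hnf1) in Vsig1.
Lgals4, chr7:28833679-28833764, plus strand: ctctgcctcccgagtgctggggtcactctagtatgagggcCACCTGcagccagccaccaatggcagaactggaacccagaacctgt
Myo1a, chr10:127705006-127705078, plus strand: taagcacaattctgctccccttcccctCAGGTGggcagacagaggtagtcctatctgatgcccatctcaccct
Anxa10, chr8:62123194-62123413, minus strand: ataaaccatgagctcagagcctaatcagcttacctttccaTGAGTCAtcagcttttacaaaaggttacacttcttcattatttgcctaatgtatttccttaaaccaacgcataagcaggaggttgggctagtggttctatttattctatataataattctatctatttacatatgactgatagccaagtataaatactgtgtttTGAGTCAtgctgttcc
Vsig1, chrX:140907403-140907488, plus strand: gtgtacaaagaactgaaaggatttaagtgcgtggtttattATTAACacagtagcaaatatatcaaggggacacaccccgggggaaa

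Counted from the RefSeq starts, the capitals begin 75 bases before the start of Lgals4, 223 before that of Myo1a, 180 and 16 before that of Anxa10 and 165 before that of Vsig1. The GENCODE gene starts, used for the positions given with each gene, differ for 3 of these 4 genes. From them the letters lie 135 bases upstream in Lgals4, 137 in Myo1a, 223 and 59 in Anxa10 and 165 in Vsig1. Read on both strands over the full windows, the Zeb letters stood in 3 of the 7 member promoters (the third, in Vsig1, lies past the start) and in 20.2% of all 32851 promoters. TGANTCA stood in 1 of 7 and in 7.81% of all, and GTTAAT in 1 of 7 and in 7.10%. The Rbpj core TGGGAA, read by the DNA partner of Notch, stood in 1 of 7, past the inner start of Plac8, and in 25.6% of all. The Klf letters CCNCNCC stood in 3 of 7 and in 69.8%. None of the 7 held AGATAA, the letters of Gata6 and its relatives (11.2% of all), CAAAGTC (Hnf4, 4.44%), TGTTTAC (forkhead factors, 3.65%) or TTTATNG (Cdx, 10.9%). The searched letters overlap in no printed stretch, and a match describes letters, not a bound site.

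Per length of exon, the genes spanned over 3 orders of magnitude. Lgals4 had the highest level, 16122 ± 9639 normalised counts per kb of exon in controls and 28434 ± 3699.7 in the knockdown (SD, n = 3 each), above 99.7% of the tested genes. Plac8 came next, at 7589.7 ± 1555 and 12360.1 ± 3564 per kb, above 99.2%. Their control libraries overlapped, while in the knockdown every Lgals4 value lay above every Plac8 value.

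Ceacam1 (548 ± 275 per kb), Vsig1 (387 ± 226) and Anxa10 (362 ± 82.7) formed a middle tier in controls whose libraries overlapped. In the knockdown Ceacam1 stood at 2739 ± 1491 per kb, Anxa10 at 857 ± 249 and Vsig1 at 392 ± 171. Ctse, at 26.2 ± 20.99 and 128 ± 102 per kb, and Myo1a, at 10.7 ± 4.64 and 34.4 ± 10.9, were low, above 36.0% and 17.8% of the tested genes. Vsig2 was lowest, at 8.03 ± 9.72 and 6.21 ± 9.21.

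**Figure D1:**
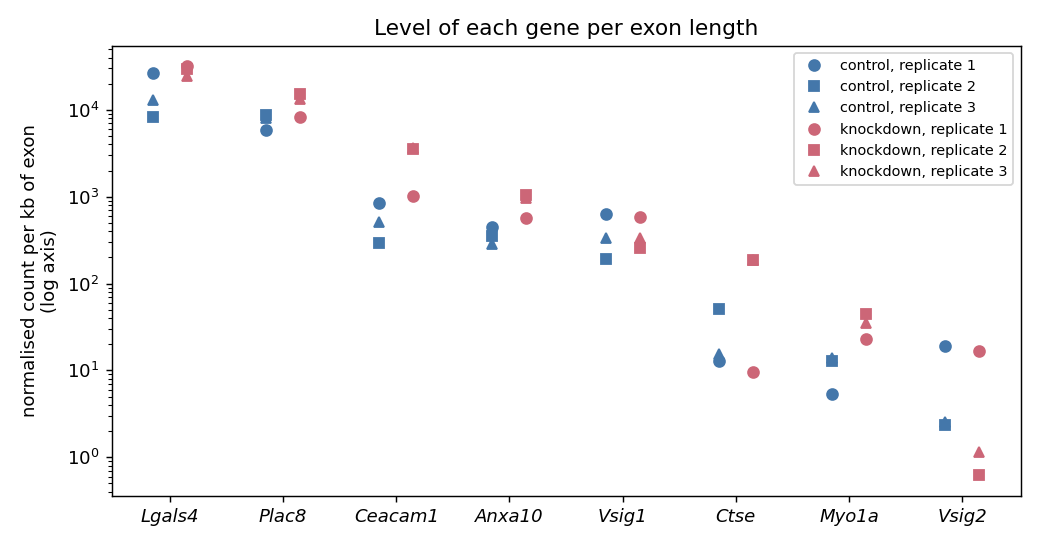
Normalised count per kb of exon (log axis) of the 8 listed genes, ordered by their mean, with 1 point per library, blue for control and red for Jag1 knockdown, and the marker shape giving the replicate number. Lgals4 and Plac8 lie above all other genes in every library, and Vsig2 has its high points in replicate 1 of both groups.

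No member passed the main test, limma on log2 of the normalised count plus 1 with Benjamini-Hochberg adjustment over all tested genes. It called 0 of 7 members, against 0% of all genes, and edgeR likewise called 0 of 7. At an unadjusted p below 0.05 limma had 4 of the 7, Anxa10, Myo1a, Ceacam1 and Plac8, and 1021 of all 13997 genes. Adding the replicate number to limma or edgeR gave calls for 0.0143% of all genes and for 0 of 7 members.

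DESeq2 on the recovered reads with the replicate number as a term called 5 of 7 members higher and 0 lower, where it called 4.57% of all tested genes higher and 2.58% lower (7.15% in either direction). The 5 were Ctse, Anxa10, Lgals4, Myo1a and Plac8. Without the term, DESeq2 called 2 members higher, Anxa10 and Ceacam1, against 0.722% of all genes higher and 0.522% lower (1.24% in either direction). Below, "rose" and "fell" refer to the fit with the term, which called the most genes among the fits of all 6 libraries. Its 5 member calls became 0 without both libraries of replicate 2, and 0 without both of replicate 3. In these fits 97 and 127 of all 13997 tested genes were called. Without both libraries of replicate 1 the same fit called 6 members and 2120 genes.

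On replicates 2 and 3 alone, limma called 6 of 7 members higher (those 5 and Ceacam1), against 6.04% of all tested genes higher and 3.57% lower (9.62% in either direction). Adding the replicate number to that fit again gave 6 of 7, against 13.5% higher and 10.2% lower (23.7% in either direction). In limma without both libraries of replicate 2, and without both of replicate 3, 0 of 7 members and 0 genes in all were called. At an unadjusted p below 0.05 these fits had 0 and 1 of the 7 members, and 117 and 183 genes. Over the 7 tested members the log2 change had a median of 1.22 in limma, beside 0.00 over all tested genes. Pair by pair, knockdown minus the control of the same number, the member median was 0.28, 1.77 and 1.33 in replicates 1, 2 and 3. Vsig1 was called in none of these fits, and Vsig2 entered none of them.

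**Figure D2:**
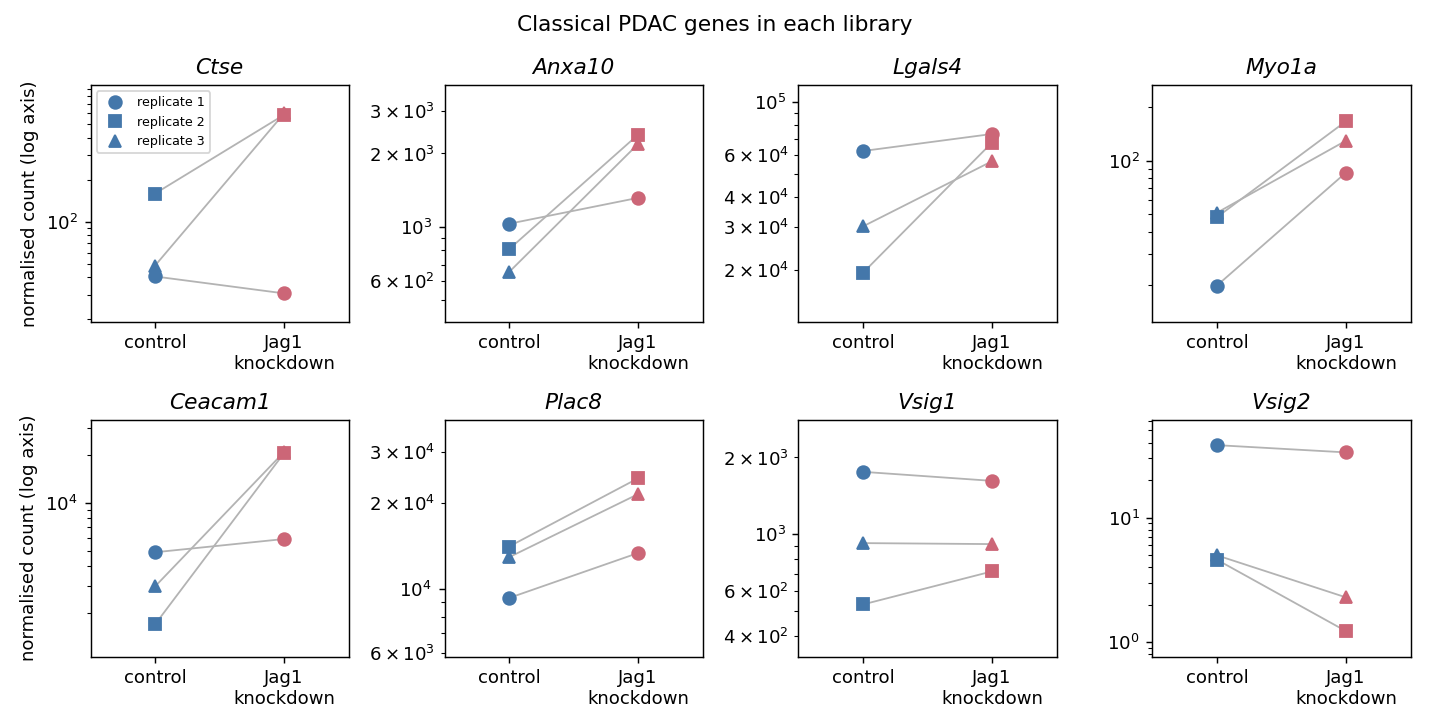
Normalised count (log axis, a separate scale per gene) of the 8 listed genes in control (blue) and Jag1 knockdown (red) libraries, with a line joining libraries of the same replicate number. Anxa10, Myo1a and Ceacam1 have every knockdown library above every control, and the replicate 1 lines (circles) are flatter than the others for Anxa10, Lgals4 and Ceacam1.

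Ceacam1, a cell adhesion receptor with inhibitory signalling motifs, showed the largest change of the 7 in limma. Its gene spans chr7:25461707-25477603 on the minus strand (GRCm38, the build of all positions below). Controls 1, 2 and 3 had normalised counts of 4874, 1703 and 2961, and knockdowns 1, 2 and 3 had 5914, 20739 and 21062. Every knockdown library lay above every control, but knockdown 1 only by a little, and knockdowns 2 and 3 stood far above it.

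Group means of Ceacam1 were 3179 ± 1597 and 15905 ± 8654 (SD, n = 3 each, as for all means below). Its log2 change was 2.24 (SE 0.59, adjusted p = 0.606) in limma. DESeq2 without the replicate term called it (2.32, SE 0.57, adjusted p = 0.00867). With the term it did not pass (2.30, SE 0.87, adjusted p = 0.0825), beside log2 differences of 0.28, 3.61 and 2.83 in pairs 1, 2 and 3. On replicates 2 and 3 alone limma gave 3.22 (SE 0.27, adjusted p = 0.00581).

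Ceacam1 shares sequence with its neighbour in the family, Ceacam2: 30.4% of the 50-base words of its transcripts occur in another gene, nearly all of them in Ceacam2. Reads of both can thus be misassigned. Ceacam2 held 12, 7 and 8 reads in controls and 24, 51 and 65 in knockdowns, between 0.204% and 0.472% of the Ceacam1 reads of the same library. The other listed members shared no 50-base word with another gene, and no exon of a member overlapped an exon of another annotated gene.

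Myo1a, the brush border myosin whose promoter holds CAGGTG as printed above, had low counts. The gene spans chr10:127705170-127720940, plus strand. Normalised counts of 19.9, 48.2 and 51.1 came from 24, 42 and 41 reads in the control libraries. Those of the knockdown libraries, 85.9, 167 and 129.9, came from 98, 136 and 170 reads. The groups did not overlap.

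Log2 differences of Myo1a were 2.06, 1.77 and 1.33 in pairs 1, 2 and 3. It rose by 1.74 (SE 0.41, adjusted p = 0.00139 in DESeq2 with the replicate term), from 39.7 ± 17.2 to 128 ± 40.6. In limma the change was 1.72 (SE 0.48, adjusted p = 0.606), and without the replicate term DESeq2 gave an adjusted p of 0.0644. Myo1a was the only tested member whose difference in pair 1 was larger than in pairs 2 and 3.

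Anxa10 marks gastric epithelium among the annexins. Upstream of the gene, which spans chr8:62057042-62123150 on the minus strand, stand the AP-1 letters shown above. The control libraries had 1029, 809 and 652 normalised counts of Anxa10, the knockdown libraries 1315, 2389 and 2188. All knockdown values lay above all control values, with knockdown 1 closest to the controls.

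Anxa10 rose by 1.23 (SE 0.30, adjusted p = 0.00225 in DESeq2 with the replicate term), from 829.7 ± 189.6 to 1964 ± 571. It was the member with the smallest unadjusted p in limma (1.22, SE 0.29, adjusted p = 0.604). DESeq2 called it without the replicate term too (adjusted p = 0.0256). The log2 differences were 0.35, 1.56 and 1.75 in pairs 1, 2 and 3.

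Across all tested genes, 6.29% had every knockdown library above every control, and 5.44% every knockdown library below. Among the 7 tested members the first held for Anxa10, Myo1a and Ceacam1, and the second for none.

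Ctse encodes cathepsin E. The plus strand of chr1:131638306-131675505 holds it. Control values were 40.6, 159.6 and 48.6 normalised counts, and knockdown values 30.7, 586 and 599.8. Knockdown 1 was the lowest of all 6 libraries and knockdowns 2 and 3 the highest, so the groups overlapped.

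The log2 differences of Ctse were -0.39, 1.87 and 3.60 in pairs 1, 2 and 3, the widest spread among the tested members. It rose by 1.75 (SE 0.60, adjusted p = 0.0464 in DESeq2 with the replicate term). This is the member call closest to the threshold, and in limma the change was 1.69 (SE 1.20, adjusted p = 0.814). On replicates 2 and 3 alone limma gave 2.73 (SE 0.54, adjusted p = 0.0353). Without both libraries of replicate 2 the DESeq2 change was 1.65 (adjusted p = 0.639), and without both of replicate 3 it was 0.81 (adjusted p = 0.908).

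Lgals4, the galectin of the gut surface, was among the most abundant messages of these organoids. The gene, at chr7:28833854-28841708 on the plus strand, follows the stretch with the Zeb letters printed above. For Lgals4 the normalised counts ran 62313, 19395 and 30256 over controls 1, 2 and 3. Knockdowns 1, 2 and 3 gave 73364, 67595 and 56512. Control 1 lay at the level of the knockdown libraries, above knockdown 3, and controls 2 and 3 lay below all 4 of these.

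Lgals4 rose by 0.98 (SE 0.29, adjusted p = 0.0170 in DESeq2 with the replicate term), from 37321 ± 22314 to 65824 ± 8565. The log2 differences were 0.24, 1.80 and 0.90. In limma the change was 0.98 (SE 0.42, adjusted p = 0.690). Without both libraries of replicate 2 the DESeq2 change was 0.56 (adjusted p = 0.923).

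Plac8 encodes a small protein that is also used by leukocytes. Its position is chr5:100553725-100572245, minus strand. Plac8 stood at 9302, 14049 and 12897 normalised counts in the control libraries, against 13342, 24293 and 21396.5 after knockdown. Knockdown 1 lay between controls 2 and 3, so the groups overlapped. Yet each knockdown lay above the control of the same number, as for 22.3% of all tested genes.

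Plac8 rose by 0.68 (SE 0.16, adjusted p = 0.00159 in DESeq2 with the replicate term), the smallest change among the 5 calls. Its log2 differences of 0.52, 0.79 and 0.73 were the most even of the tested members. In limma the change was 0.68 (SE 0.28, adjusted p = 0.678). Ptprc, the pan-leukocyte marker, had no row in the table. The 1 immune marker with a row was Cd68, with normalised counts of 98.6, 136 and 111 over the controls and 117, 988 and 400.4 over the knockdowns. It rose by 1.67 in DESeq2 with the replicate term (adjusted p = 0.00794), and its part in the Plac8 values was not tested.

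**Figure D3:**
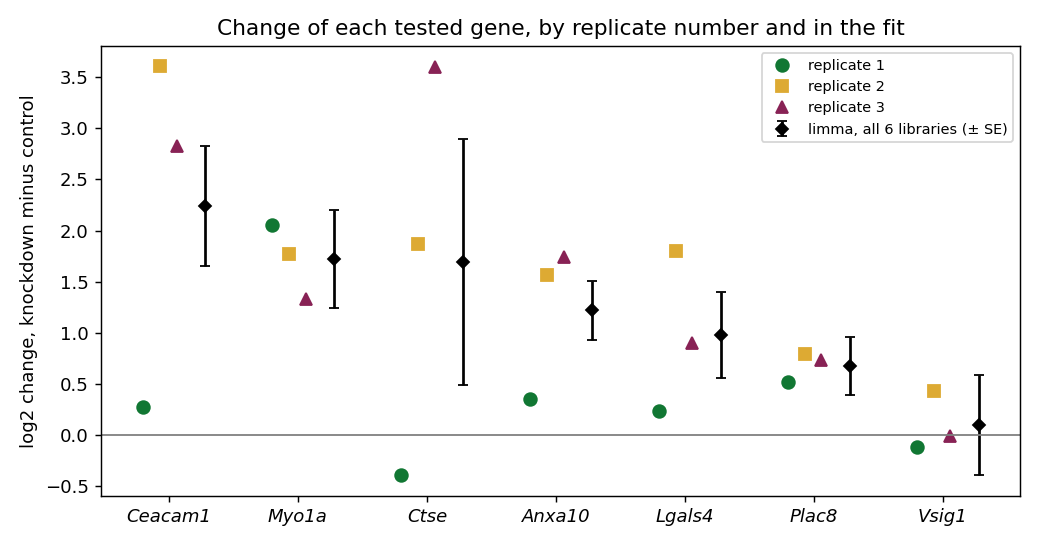
Log2 change, knockdown minus control, of the 7 tested genes: coloured points are the differences between libraries with the same replicate number, and black diamonds with bars are the limma change ± SE over all 6 libraries. Plac8, Vsig1 and Myo1a have their 3 points closest together, with those of Vsig1 on both sides of 0. Ceacam1 and Ctse have replicate 1 far below replicates 2 and 3.

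Vsig1, a junctional immunoglobulin protein of gastric epithelium, had its high values in replicate 1 of both groups. On the X chromosome it spans chrX:140907608-140939472, plus strand. Libraries of replicates 1, 2 and 3 had 1757, 532 and 924 normalised counts without knockdown and 1619.9, 716 and 916 with it. Both replicate 1 libraries were highest, with a mean 2.19 times that of the other 4 libraries.

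The log2 change of Vsig1 was 0.10 (SE 0.49, adjusted p = 0.982) in limma and 0.10 (SE 0.21, adjusted p = 0.881) in DESeq2 with the replicate term. Its sign turned with scaling by spike-in RNA, to -0.08, and differed between pairs, at -0.12, 0.43 and -0.01. A p above the threshold does not show that the groups were alike.

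Vsig2 is a relative of Vsig1 in the same protein family. Its coordinates are chr9:37539255-37544205, plus strand. Controls gave 46, 4 and 4 reads, or 38.1, 4.59 and 4.98 normalised counts. Knockdowns gave 38, 1 and 3 reads, or 33.3, 1.23 and 2.29. Replicate 1 of both groups held nearly all of the Vsig2 reads. For Vsig1 it was highest too, but each library of replicates 2 and 3 still held between 463 and 1199 reads. In a limma fit without a filter the change of Vsig2 was -0.79 (SE 1.25, adjusted p = 0.927). Its counts in replicates 2 and 3 are too few to read a change from.

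Over the 6 libraries, log2 levels of Vsig1 and Vsig2 ran together (Pearson r = 0.84), and so did Anxa10 with Ceacam1 (r = 0.95), Myo1a with Plac8 (r = 0.94) and Ctse with Plac8 (r = 0.90). Vsig2 ran against Ctse (r = -0.86) and Plac8 (r = -0.84), and Lgals4 with Ctse gave r = 0.03. These are descriptions over 6 points that share the replicate numbers and the groups. Of the tested genes with a mean of at least 100, the closest in pattern was Mtmr7 for Ctse (r = 0.996), Micu2 for Anxa10 (r = 0.998), Cit for Lgals4 (r = 0.995) and Las1l for Myo1a (r = 0.984). It was Cep55 for Ceacam1 (r = 0.998), Omp for Plac8 (r = 0.995) and Herc1 for Vsig1 (r = 0.997). Each of these is the highest r among 10727 genes compared (10728 for Myo1a), over only 6 points. Between 13 genes (for Myo1a) and 172 genes (for Lgals4) exceeded r = 0.95.

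Of 33 other genes of the classical signatures 24 had a row and were tested, with a median log2 change of 0.80 in limma and of 0.39, 1.34 and 0.67 in pairs 1, 2 and 3. DESeq2 with the replicate term called 4.57% of all tested genes higher and 2.58% lower. In this list 9 rose, 2 fell and 13 did not pass in that fit, and limma called 0. Cdh17, an intestinal cadherin and the most abundant of them, rose by 1.29 (SE 0.30, adjusted p = 0.00102 in that DESeq2 fit) from 13729 ± 9671 to 42549 ± 33308 normalised counts. The glutathione peroxidase Gpx2 (0.35, SE 0.78) and the tetraspanin Tspan8 (0.21, SE 0.18) did not pass. Those that fell were Agr2 (-1.30, SE 0.26) and Spink4 (-2.47, SE 0.78), both known from mucous and goblet cells. Here and in the lists that follow, Agr2, Spink4, Vil1, Cdx2, Pdx1, Gata6, Lgals9, Anxa1, Gpa33 and Esam were named after their values were seen. The other genes were named for their abundance or because lists share them.

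Brush border and enterocyte genes had a median log2 change of 1.44 over the 15 of 22 with a row. Not all of them belong to the microvillus, as the list also holds the transcription factor Cdx2 and the keratin Krt20. In DESeq2 with the replicate term 9 rose, 0 fell and 6 did not pass, against 4.57% of all tested genes higher and 2.58% lower. The pair medians of the list were 0.41, 2.03 and 1.59. Vil1 (villin) rose by 1.44 (SE 0.27, adjusted p = 2.83e-05 in that fit). The linker Ezr (0.41, SE 0.20) and the capping protein Eps8 (0.46, SE 0.25) did not pass. Cdh17, Krt20 and Pls1 stand in this list and in the classical one, and Cdx2 in this list and among the lineage factors below. The classical list also shares Cldn18, Tff1 and Tff2 with the gastric list, and Elf3, Gata6 and Foxq1 with the lineage factors.

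Of 16 gastric genes 11 had a row and 10 were tested. In DESeq2 with the replicate term 1 rose, 1 fell and 8 did not pass, against 4.57% of all tested genes higher and 2.58% lower. The gastric claudin Cldn18 rose by 0.81 (SE 0.16, adjusted p = 1.00e-04) and the water channel Aqp5 fell by 1.39 on the log2 scale (SE 0.28, adjusted p = 1.36e-04). Muc5ac, the surface mucin, was at -1.71 (SE 0.86, adjusted p = 0.257). The list had a median of 0.44 in limma, and of 0.16, 1.01 and -0.63 in pairs 1, 2 and 3. On replicates 2 and 3 alone limma called 1 of the 10 higher and 4 lower, against 6.04% and 3.57% of all tested genes.

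**Figure D4:**
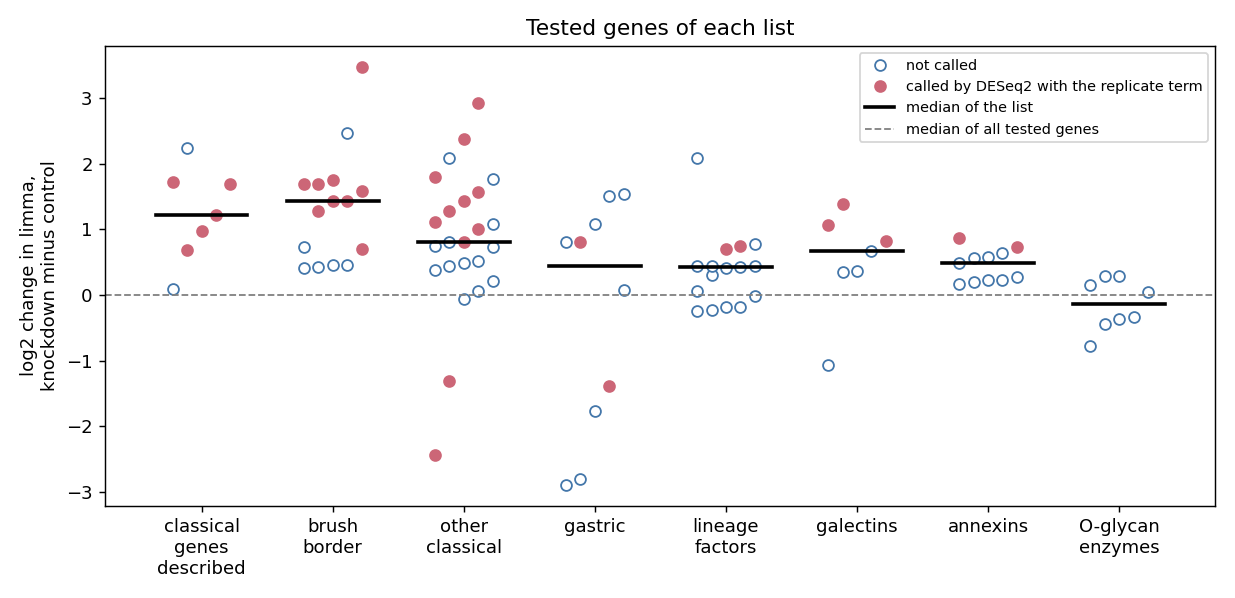
Log2 change in limma, knockdown minus control, of each tested gene (circles) in 8 lists, with the list median as a black bar and the median over all tested genes as a dashed line; filled red circles passed DESeq2 with the replicate term. Brush border genes lie at or above 0.40, with a median of 1.44, and gastric genes spread to both sides of 0.

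Of the lineage transcription factors, 16 of 18 had a row and were tested. Of them 2 rose (Cdx2 by 0.70 and Pdx1 by 0.75) and 0 fell, against 4.57% and 2.58% of all tested genes. Elf3, the most abundant of the 16, was at 2.10 (SE 0.77, adjusted p = 0.0695 in DESeq2 with the replicate term), Hnf4a at 0.44 (SE 0.23) and Klf4 at 0.42 (SE 0.20). The median of the 16 in limma was 0.42. Gata6, named at the start with Hnf4a and Cdx2, was at 0.07 (SE 0.21, adjusted p = 0.930 in DESeq2 with the replicate term).

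Among relatives of Lgals4, 7 other galectins had a row and 3 rose: Lgals2 by 0.82 (SE 0.16), Lgals3 by 1.40 (SE 0.32) and Lgals9 by 1.08 (SE 0.36), while Lgals1, the most abundant of these 7 by count, did not pass (0.37, SE 0.19). Of 11 other annexins 2 rose, against 4.57% of all tested genes: Anxa2 by 0.88 (SE 0.27) and Anxa1 by 0.73 (SE 0.22). Anxa3 and Anxa4 were at 0.20 and 0.28. Of 5 class I myosins other than Myo1a 0 passed, and Myo1c and Myo1d were at -0.09 and 0.01 (SE 0.15 and 0.17). Myo1e was at 0.44 (SE 0.19) and higher in all 3 pairs, as were 22.3% of all tested genes. The difference between Myo1a and these relatives was not tested.

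Among relatives of cathepsin E, Bace1 fell by 0.65 (SE 0.17, adjusted p = 0.00623 in DESeq2 with the replicate term), and the lysosomal protease Ctsd was at 0.20 (SE 0.22) and Bace2 at -0.51 (SE 0.44). Of the 9 Vsig-like and junctional immunoglobulin genes with a row, 2 rose, F11r by 0.59 and the intestinal antigen Gpa33 by 3.45. Esam, the 1 that fell, did so by 2.09 on the log2 scale. Over all tested genes 4.57% rose and 2.58% fell. The abundant Cxadr was at -0.19 (SE 0.17) and Vsig10 at 0.78 (SE 0.28). Of 8 tested enzymes that build mucin-type O-glycans around the step of St6galnac1, 0 rose and 0 fell in that fit. Gcnt3, C1galt1 and St3gal2, the most abundant, were at 0.29 (SE 0.17), 0.16 (SE 0.25) and -0.44 (SE 0.21), St3gal2 being lower in all 3 pairs. The list had a median of -0.14 in limma, and limma on replicates 2 and 3 alone called 2 of the 8 lower, against 3.57% of all tested genes.

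Of 8 general markers of epithelium 6 rose and 0 fell in DESeq2 with the replicate term, with a median log2 change of 1.23 in limma and of 0.57, 1.86 and 1.18 in pairs 1, 2 and 3. Their summed level ran from 135714 to 181415 normalised counts in controls and from 188319 to 489408 in knockdowns. Mitochondrial reads made up 0.595%, 1.55% and 2.03% of gene reads in controls and 0.555%, 1.02% and 1.20% in knockdowns. Of 7 duct markers 2 rose and 1 fell, against 4.57% and 2.58% of all tested genes, with a list median of -0.18 in limma. The part of any of these in the members' values was not tested.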

How the data were processed

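The authors deposited normalised counts, a signal per gene that is the read count divided by 1 size factor per library; 6 identical tables were found and 1 was used. Within 0.001 of a read, 100% of values were whole multiples of 1 step, so reads were recovered. GRCm38, STAR 2.5.2b, Trimmomatic and DESeq2 1.32.0 are named, without their roles, in what the submitters noted of the processing. The counting tool, the annotation and the rule by which features were listed are not given in the sources used here, and the TruSeq kit named per the labels' protocols does not mark strand. Symbols, positions and exon lengths came from GENCODE M21 (GRCm38) for 14219 of 14254 genes.

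Groups came from sample titles. The main test was limma 3.58.1 (R 4.3.3, trend) on log2(normalised count + 1), filter 10 in 3 libraries, Benjamini-Hochberg threshold 0.05, without covariates. edgeR 4.0.16 and DESeq2 1.42.0 ran on recovered reads as alternatives. All were also run on simulated reads with the same dispersion for every gene and no replicate effect. That run cannot show how the replicate term behaves in these data. Adjusted p-values are over all genes tested. Deviations from group means correlated at r = 0.68, 0.57 and 0.44 between libraries numbered 1, 2 and 3, all over 0.1, so libraries of one number were paired, although what they stand for is not labelled. Unmatched libraries 2 and 3 correlated nearly as well (0.37 and 0.38) and also passed 0.1. The rule thus cannot settle which library 2 or 3 goes with which. Replicate 1 is the number that plainly stands apart. The rule for named genes took the members, Jag1, the gene nearest to each member in pattern and up to 3 of the most abundant genes of each list; exceptions are stated. The members, the lists and the use of DESeq2 with the replicate term were chosen with earlier results of these data known.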

Additional observations from a re-analysis of the deposited data

How the results depend on the processing

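In limma, the 0 genes called became 2 with the replicate number as a block, 116 with spike-in scaling (which moved the median of all genes to -0.18), and 1346 without both libraries of replicate 1, or 3317 without them and with the replicate block, a fit added after seeing the data. Without replicate 2 or replicate 3 limma called 0 genes and 0 members. Leaving out 1 library gave 0 to 294, the highest without control 1. edgeR called 2 genes with the replicate block. DESeq2 called 174, and 1001 with the replicate block, of which the last became 2120, 97 and 127 without replicates 1, 2 and 3. The 0 members called in limma became 1 with spike-in scaling (Ceacam1, adjusted p = 0.0345), 2 in DESeq2, 5 in DESeq2 with the replicate block, and 6 without replicate 1 in limma with or without the replicate block and in DESeq2 with it. The block changed no other member call. The member median stayed between 0.96 and 1.56 in all alternatives, and Jag1 between 36.6% and 62.2% of control. Of the 7 tested members Vsig1 alone turned sign: the log2 change was -0.0806 with spike-in scaling, -0.0651 without replicate 2 in limma, -0.0704 without it in DESeq2 with the replicate block, and -0.32 to 0.54 over single libraries left out. Pseudocounts of 0.5 and 10 and filters of 0 and 50 changed no member call. The cause was not tested. Depth limits Vsig2 most, with 1 to 46 reads a library.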
